A study of Mus musculus with 16 samples.

Results

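A set of 32 genes that encode the chaperones of the endoplasmic reticulum (ER) and the unfolded protein response (UPR) was examined in mouse liver. The genes were picked by symbol from the 52143 genes of the count table. The set held 9 folding chaperones and co-chaperones, 3 protein disulfide isomerases, 2 J-domain co-chaperones, the 3 stress sensors, 3 transcription factors, 4 outputs of ATF4 and CHOP, 7 components of ER-associated degradation and 1 subunit of the translocon. All 32 were found. *Ddit3* had 2 identifiers in the table, and the row at 0 in every library was left out. After low expressed genes were removed, 31 of the 32 genes were tested. *Asns* stayed below the filter, which asks for 1 CPM (counts put on a common library total) with at most 4 libraries below it, and is described from its counts.

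Proteins that are secreted or placed in membranes fold in the ER with the help of chaperones, and the hepatocyte, which makes most plasma proteins, carries a large ER. When unfolded proteins build up, the sensors IRE1, ATF6 and PERK start the UPR: IRE1 splices the mRNA of *Xbp1*, ATF6 is cleaved to a transcription factor, and PERK slows translation while the translation of ATF4 goes up. These arms raise chaperones, the degradation machinery and, through ATF4 and CHOP, amino acid metabolism and cell death genes. Gene counts show the level of each mRNA and not its splicing, its translation or the cleavage of a protein.

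Liver RNA came from male C57BL6/J mice in 4 groups of 4 libraries. Chow was the control diet with saline, Chow/FGFR4 KD the same diet with the siRNA, HFD the high-fat diet with saline and HFD/FGFR4 KD the high-fat diet with the siRNA. Mice entered the diets at 6 weeks of age and stayed on them for 12 weeks. Injections were given at intervals of 2 weeks. The KD groups received an siRNA to *Fgfr4*, at 3 mg/kg, that carries N-acetylgalactosamine, a sugar that hepatocytes take up. No group received another siRNA, so the siRNA as such and the loss of FGFR4 cannot be told apart. The labels name no animals, cages or hours of collection, and p-values therefore measure the spread between these libraries.

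The promoters of these genes are known for short elements that UPR factors bind, and they were searched for them. The genes were picked as chaperone and UPR genes, so a high share of such elements follows in part from that choice. The part of these elements in the levels of the genes was not tested. RefSeq windows from 250 bases before to 50 after the start (GRCm38.p6) matched 28 of the 32 genes in 29 windows. The ER stress element, written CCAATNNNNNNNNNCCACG and searched on both strands, was in 31.03% of these windows and in 0.1187% of all 32851 windows of 300 bases. Its 9 genes were 7 of the folding and degradation genes shown first, *Dnajc3* and *Pdia6*. The second form ATTGGNCCACG was in *Herpud1* and *Dnajb11*, 6.897% of the windows against 0.0365%. The C/EBP-ATF element TGATGNAA was in 13.79% against 3.969%. The XBP1 element TGACGTGG was in none, against 0.6758% of all windows. The sequences below lie upstream of the RefSeq start, on the strand of the gene, and the capitals mark the element. Those of *Hspa5* and *Asns* lie inside the gene by the positions of GENCODE vM21.
*Hspa5*, chr2:34772020-34772048, plus strand: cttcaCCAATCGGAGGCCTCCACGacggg
*Hsp90b1*, far site, chr10:86705633-86705661, minus strand: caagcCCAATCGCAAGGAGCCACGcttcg
*Hsp90b1*, near site, chr10:86705528-86705556, minus strand: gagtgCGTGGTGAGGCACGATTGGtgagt
*Calr*, chr8:84847070-84847098, minus strand: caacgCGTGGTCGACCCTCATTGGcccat
*Canx*, chr11:50325795-50325823, minus strand: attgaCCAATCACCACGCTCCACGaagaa
*Creld2*, chr15:88819515-88819543, plus strand: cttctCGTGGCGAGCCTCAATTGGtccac
*Derl3*, chr10:75893237-75893265, plus strand: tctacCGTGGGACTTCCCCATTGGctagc
*Syvn1*, chr19:6046527-6046555, plus strand: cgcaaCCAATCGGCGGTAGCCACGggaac
*Dnajc3*, chr14:118937822-118937850, plus strand: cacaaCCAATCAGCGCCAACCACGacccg
*Pdia6*, chr12:17266486-17266514, plus strand: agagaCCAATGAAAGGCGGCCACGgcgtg
*Herpud1*, second form, chr8:94386368-94386396, plus strand: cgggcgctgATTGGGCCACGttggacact
*Herpud1*, C/EBP-ATF element, chr8:94386307-94386334, plus strand: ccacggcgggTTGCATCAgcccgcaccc
*Chac1*, C/EBP-ATF element, chr2:119351039-119351066, plus strand: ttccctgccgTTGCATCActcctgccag
*Asns*, C/EBP-ATF element, chr6:7693215-7693242, minus strand: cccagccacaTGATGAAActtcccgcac
A match of letters is a description of the window and does not show that a factor was bound in these livers. The matches in *Dnajb11* and *Trib3* lie after the start and are not printed.

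The libraries held 3445949 to 5976449 counts, and a single gene, Gm42418, took 11.07% to 22.7% of them. *Fgfr4*, the target of the siRNA, had 29.7 ± 4.57 CPM in Chow and 25.7 ± 4.25 CPM in HFD, as mean ± SD of 4 libraries (n = 4). It was at 4.78 ± 1.60 CPM in Chow/FGFR4 KD and 3.74 ± 1.35 CPM in HFD/FGFR4 KD, below every saline library. All 8 hepatocyte markers passed the filter, and their summed level was 56712 to 79144 CPM over the 16 libraries. Pairs of libraries were compared by the chi-square of their counts divided by its degrees of freedom, which was 48.0 to 72.6 between HFD/FGFR4 KD 1 and the rest of its group and 7.59 to 16.6 among the other 3. The HFD libraries fell into pairs, since HFD 1 and HFD 3 (11.4) and HFD 2 and HFD 4 (11.7) were closer to each other than across the pairs (34.7 to 58.9).

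The ER chaperones varied widely between livers of the same group. *Hspa5*, which encodes BiP, the main Hsp70 of the ER and the repressor of the sensors, was at 1638, 1462, 1019 and 1285 CPM in the 4 Chow libraries in order of replicate. It was at 1139, 1081, 1694 and 2325 CPM in Chow/FGFR4 KD. In HFD it was at 974, 1496, 816 and 1265 CPM, and in HFD/FGFR4 KD at 2090, 1201, 1182 and 1118 CPM. The ranges of all 4 groups overlap, and the highest library of each KD group is above every saline library. The median SD of log2 values within a group was 0.36 for the 12 chaperones and disulfide isomerases, 0.17 for the 4628 genes of at least 20 CPM and 0.18 for the 28 cytosolic and mitochondrial chaperones at that level. The widest among genes over 20 CPM were *Creld2* (0.71), a disulfide isomerase-like protein, *Sdf2l1* (0.57), a partner of BiP, and *Syvn1* (0.51), the ubiquitin ligase HRD1. The narrowest were *Derl2* (0.07), *Derl1* (0.10) and *Canx* (0.13).

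The same libraries were high or low for most of the chaperones. Chow/FGFR4 KD 4 held the highest value of its group for 12 of the 12 chaperones and disulfide isomerases and for 26 of the 31 genes tested, where it held the highest for 30.4% of all genes. HFD/FGFR4 KD 1 held the highest of its group for 12 of the 12 and for 25 of the 31, against 30.1% of all genes. Chow 3 held the lowest of its group for 12 of the 12, and HFD 3 for 9 of the 12. Of the 31 genes, 22 had their highest value of all 16 libraries in Chow/FGFR4 KD 4. In the mean of log2 values over the 12 chaperone genes, relative to the mean of Chow, that library stood at 0.78 and HFD/FGFR4 KD 1 at 0.51. HFD 1 and HFD 3 stood at -0.50 and -0.58, and the other 12 libraries between -0.33 and 0.25.

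**Figure D1:**
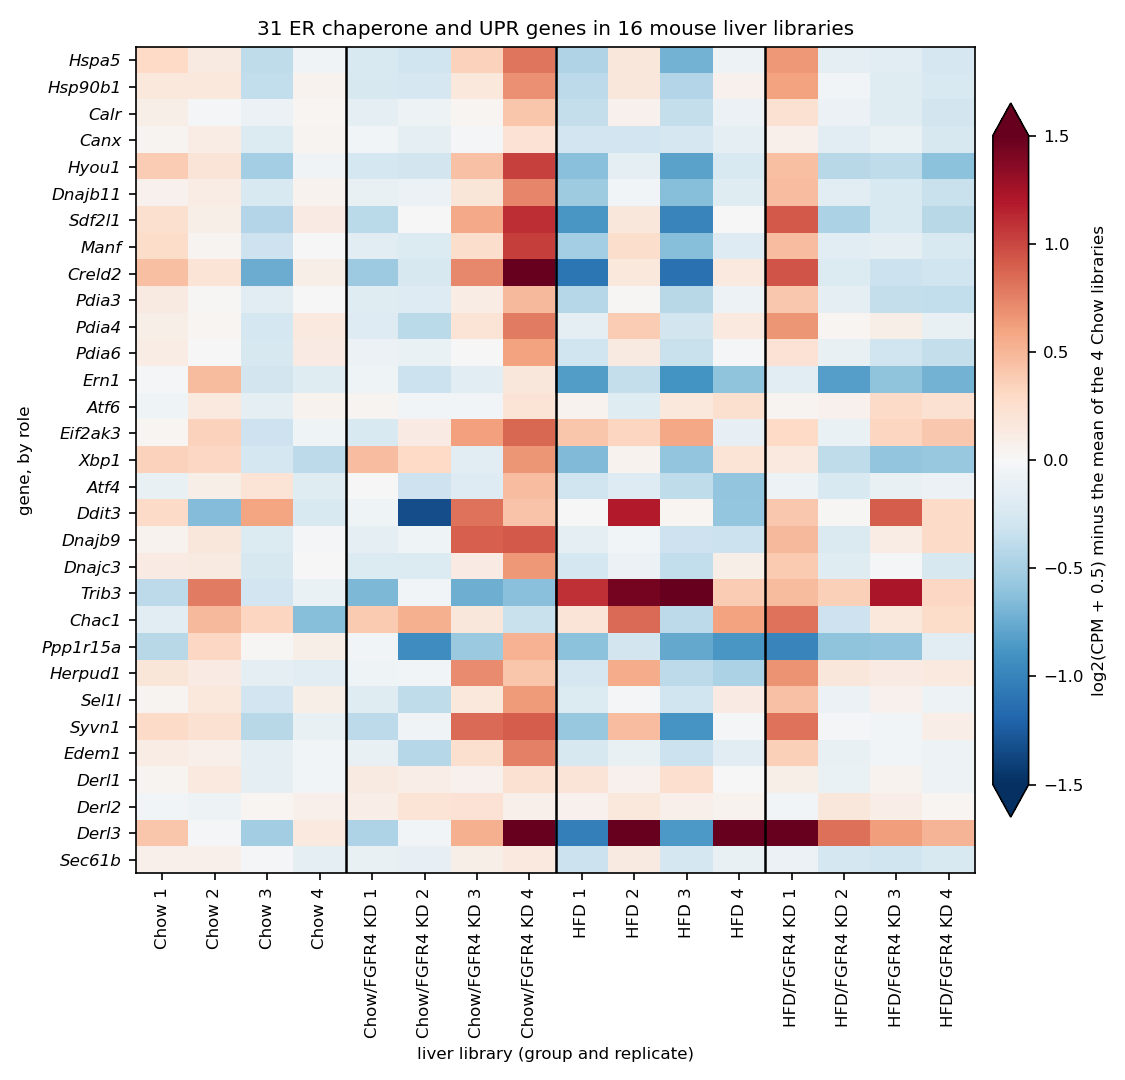
Level of the 31 tested genes (rows, by role) in each of the 16 liver libraries (columns, 4 per group), as log2(CPM + 0.5) minus the mean of the 4 Chow libraries (colour scale from -1.5 to 1.5). Chow/FGFR4 KD 4 and HFD/FGFR4 KD 1 are red and HFD 1 and HFD 3 blue for most chaperones, while *Trib3* is red in all 8 HFD libraries.

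Other transcripts moved with some of these libraries. The share of Gm42418 was 22.3% in HFD/FGFR4 KD 1 against 13.7% to 16.2% in the rest of its group, and 20.6% in Chow/FGFR4 KD 4 against 14.8% to 16.8%. It was lowest of all in HFD 1 (11.1%) and lowest of the Chow libraries in Chow 3 (13.4%). HFD 3, at 14.6%, was near HFD 2, at 14.3%, and Chow 2 and Chow 4, at 22.2% and 22.7%, were not the highest Chow libraries in chaperones. Chow/FGFR4 KD 4 held 2677 CPM of *Saa1* and 2378 CPM of *Saa2*, acute-phase proteins of the liver, and the other 15 libraries held at most 306 CPM and 118 CPM. These genes were chosen after their values were seen. HFD 1 and HFD 3, the HFD libraries low in chaperones, had a summed level of 372 and 376 CPM over 10 stellate cell markers, against 230 and 231 CPM in HFD 2 and HFD 4. *Col1a1*, a collagen gene of that list, was at 38.6 and 41.1 CPM in the first pair and at 5.89 and 8.48 CPM in the second. In HFD/FGFR4 KD 1 the stellate markers summed to 161 CPM, against 228 to 259 CPM in the other 3 libraries of its group. Plasma cells and pancreatic acinar cells are rich in these chaperones. Of 12 plasma and B cell markers, 4 (*Mzb1*, *Iglc2*, *Cd79a* and *Tnfrsf17*) were at 3 counts or fewer in every library, and the list summed to 123 to 220 CPM. *Ighm*, an immunoglobulin heavy chain gene of that list, was called higher with HFD, by 1.45 in saline mice (adjusted p = 0.0797) and 0.91 in KD mice (0.242). Of 8 acinar markers, 7 were at 3 counts or fewer in every library, with *Prss1*, *Cpa1*, *Ctrb1* and *Try4* at 0 throughout, and the list summed to 4.75 to 27.96 CPM. *Cela1* is the only gene of that list above 3 counts. The acinar sum was highest in HFD 2 (27.96 CPM) and HFD/FGFR4 KD 1 (25.4 CPM) and lowest in HFD 3, but it was 13.8 CPM in Chow/FGFR4 KD 4, the library highest in chaperones, and 22.9 CPM in Chow 3, the lowest Chow library. The part of Gm42418, the acute-phase proteins, the stellate cells or the acinar marker in the chaperone levels was not tested.

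No gene of the set passed the threshold for FGFR4 KD in either diet. The threshold is that of the study, an adjusted p under 0.25 (Benjamini-Hochberg, over 11324 genes) together with an unadjusted p under 0.05. On HFD, limma-voom called 0 of the 31, against 3.14% of all genes, and 0 had an unadjusted p under 0.05, against 11%. EdgeR's quasi-likelihood test and DESeq2 also called 0. On chow, 0 of the 31 were called, against 0.00883% of all genes, a single gene, and 0 had an unadjusted p under 0.05, against 4.58%. EdgeR and DESeq2 called 0 there as well. The 95% interval of the change lay within 1 of 0 on the log2 scale for 25 of the 31 genes in each diet, against 85% of all genes on HFD and 81.9% on chow.

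The values leaned upwards after KD in both diets. On HFD, 23 of the 31 log2 changes were above 0 with a median of 0.15, where 50.7% of all genes were above 0 with a median of 0.00. On chow 24 of the 31 were above 0, against 50.9% of all genes, with a median of 0.11. The lean moved with single libraries, in both directions. Without HFD 2, 27 of the 31 were above 0 on HFD with a median of 0.21. Without Chow/FGFR4 KD 2, 29 of the 31 were above 0 on chow with a median of 0.20. The libraries whose removal lowered the lean most were those highest in chaperones. Without HFD/FGFR4 KD 1, 19 of the 31 were above 0 on HFD with a median of 0.07. Without Chow/FGFR4 KD 4, 9 of the 31 were above 0 on chow with a median of -0.05. For *Hspa5* the change on HFD was 0.28 (95% interval -0.25 to 0.82) with all libraries and 0.08 without both of these.

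Among the single genes after KD on HFD, *Herpud1*, an ER membrane protein of the degradation complex, came closest to the threshold. It was at 424, 739, 382 and 362 CPM in HFD and at 806, 567, 546 and 559 CPM in HFD/FGFR4 KD. HFD 2 alone lay above the lowest KD library. Its log2 change was 0.42 ± 0.21 (SE), with an adjusted p of 0.494, and 0.65 with an adjusted p of 0.124 when HFD 2 was left out, the only setting tried in which a gene of the set was called for KD on HFD. *Dnajb9* (ERdj4), which returns IRE1 to BiP, gave 0.37 (-0.08 to 0.83) on HFD and 0.39 on chow. *Trib3* gave -0.52 (-1.13 to 0.09) and -0.54 in the same comparisons. None of these passed the test, and *Trib3* was the lowest value of the 31 in both diets.

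HFD changed 5 of the 31 genes in saline mice (16.1%), where it changed 26% of all genes, and 3 of the 31 (9.68%) in KD mice, where it changed 20.2% of all genes. In saline mice *Ern1*, *Atf4*, *Ppp1r15a* and *Canx* fell and *Trib3* rose. In KD mice *Ern1* and *Xbp1* fell and *Trib3* rose. EdgeR and DESeq2 called the same 5 and the same 3 genes. At an adjusted p under 0.05, 2 genes remained in saline mice (*Ern1* and *Trib3*) and 0 in KD mice. Of all genes 13.3% were called higher and 12.7% lower in saline mice, and 10.1% each way in KD mice. Of the 31, 2 had groups that did not overlap in saline mice and 1 in KD mice, 6.45% and 3.23%, against 16.1% and 11.5% of all genes.

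Directions among the lower changes depend on the scaling. With library totals in place of TMM factors, the median of all genes moved from 0.01 to 0.29 for HFD in saline mice and from -0.01 to 0.14 in KD mice. In saline mice 9 of the 31 log2 changes were above 0 with TMM factors (50.9% of all genes) and 24 with library totals. The share of all genes above 0 with library totals was not counted. The median of the 31 went from -0.19 to 0.09 in saline mice and from -0.11 to 0.04 in KD mice. It lay below the median of all genes under both scalings. In saline mice the calls went from 1 higher and 4 lower to 5 higher and 1 lower. Under library totals 38% of all genes were called in saline mice and 20.1% in KD mice. *Ern1* (lower) and *Trib3* (higher) were called under both, *Atf6*, *Eif2ak3*, *Derl1* and *Derl2* (higher) were called with library totals alone, and *Canx* turned from -0.25 to 0.03. In KD mice 8 (48.8% of all genes) and 19 were above 0, and the calls were 1 higher and 2 lower, then 2 higher and 2 lower, with *Atf6* added. The changes given below are those with TMM factors, relative to a median of all genes near 0.

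**Figure D2:**
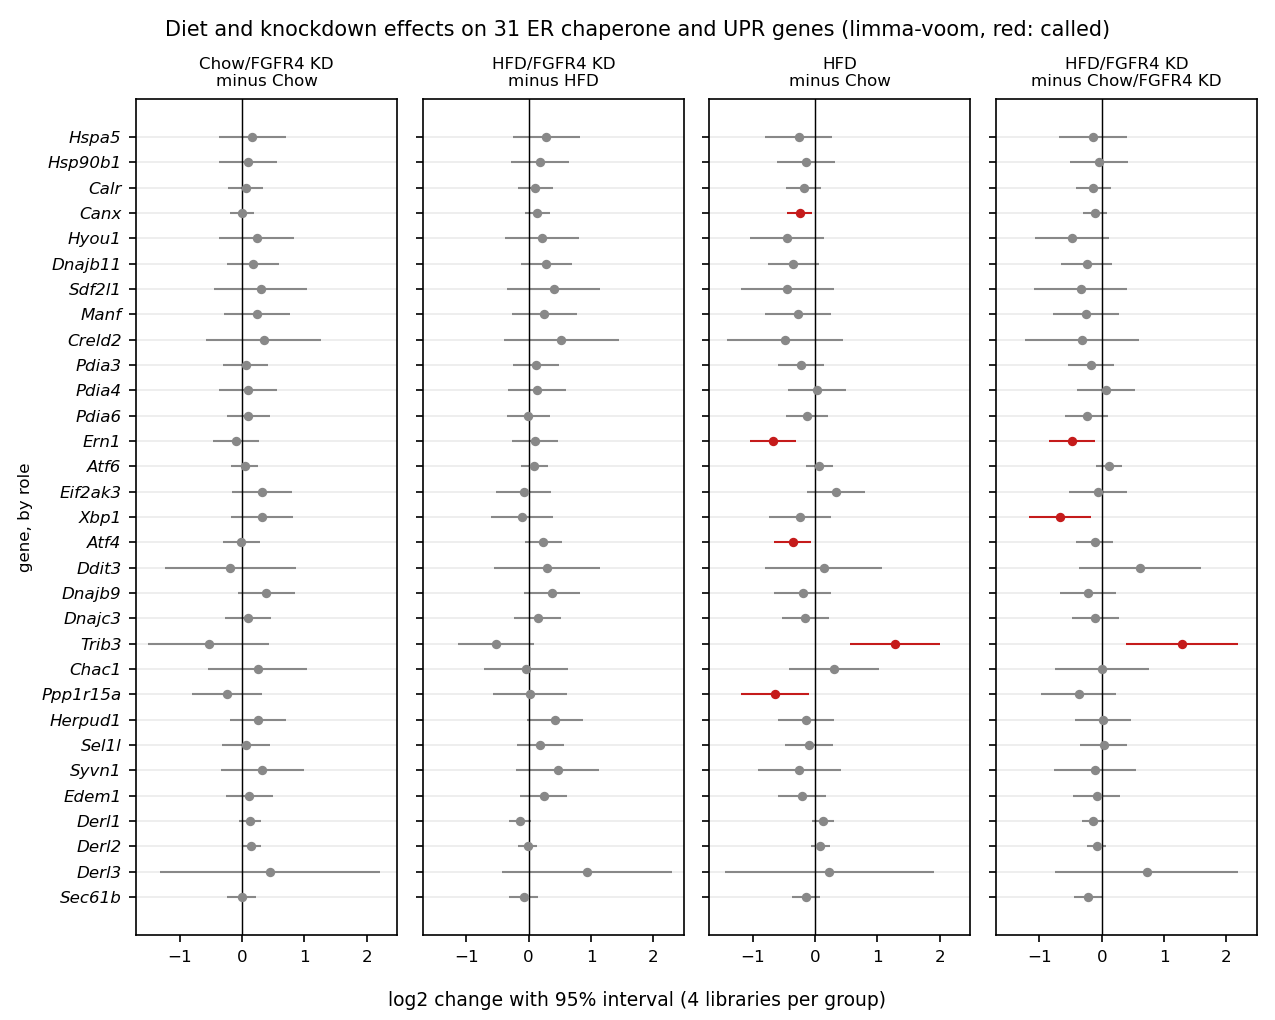
Log2 change (points) with its 95% interval (lines) for each of the 31 genes in the 4 comparisons between groups of 4 libraries, from limma-voom. The genes called are red: 0 for KD on chow and on HFD, 5 for HFD in saline mice and 3 for HFD in KD mice.

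The sensors did not move together with HFD. *Ern1* (ENSMUSG00000020715, a protein-coding gene at chr11:106394650-106487852 on the minus strand, GRCm38) encodes IRE1, the kinase and endoribonuclease. It was at 93.5, 133, 78.5 and 83.8 CPM in Chow and at 52.9, 74.1, 50.9 and 62.2 CPM in HFD, and the groups did not overlap. It fell by 0.68 on the log2 scale (SE 0.17), with an adjusted p of 0.0211. In Chow/FGFR4 KD it was at 90.6, 75.9, 84.2 and 107 CPM and in HFD/FGFR4 KD at 85.2, 53.3, 62.3 and 57.8 CPM. There it fell by 0.48 (SE 0.18), adjusted p = 0.146, with HFD/FGFR4 KD 1 inside the range of the chow libraries. That call was lost without Chow/FGFR4 KD 4 (-0.39), HFD/FGFR4 KD 2 (-0.39), HFD/FGFR4 KD 3 (-0.46) or HFD/FGFR4 KD 4 (-0.43). In saline mice *Ern1* was called without any single library, with a change of -0.79 to -0.52.

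*Eif2ak3*, the gene of PERK, was at 18.5, 22.96, 14.4 and 17.3 CPM in Chow and at 24.2, 22.7, 27.1 and 16.6 CPM in HFD. With KD it was at 15.3, 19.7, 27.9 and 33.1 CPM on chow and at 22.3, 16.8, 22.7 and 24.1 CPM on HFD. All of these groups overlap. Its change with HFD was 0.33 (95% interval -0.12 to 0.79) in saline mice and -0.06 (-0.53 to 0.40) in KD mice. *Atf6*, the sensor that becomes a transcription factor, was at 69.1, 80.3, 65.9 and 75.3 CPM in Chow and at 75.1, 63.9, 80.6 and 85.6 CPM in HFD. With KD it was at 74.6, 70.5, 70.2 and 83.8 CPM on chow and at 74.7, 75.9, 88.7 and 84.7 CPM on HFD. These groups overlap too, and its changes with HFD, 0.07 (-0.15 to 0.28) and 0.12 (-0.10 to 0.33), were not called. Of the 3 sensors, *Ern1* was called in both diet comparisons with TMM factors and the other 2 in neither.

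Of the 3 transcription factors, *Atf4* was lower with HFD in saline mice and *Xbp1* in KD mice. *Xbp1* (ENSMUSG00000020484, chr11:5520659-5525893, plus strand), the substrate of IRE1, was at 247, 241, 161 and 148 CPM in Chow and at 123, 201, 128 and 225 CPM in HFD. With KD it was at 267, 239, 173 and 308 CPM on chow and at 215, 148, 129 and 130 CPM on HFD. The KD groups overlap through Chow/FGFR4 KD 3 and HFD/FGFR4 KD 1 alone. *Xbp1* fell by 0.67 (SE 0.24) with HFD in KD mice, adjusted p = 0.129, and its change in saline mice was -0.25 (-0.75 to 0.25), not called. The difference between these diet effects, which is the same as that between the KD effects, was -0.42 with an adjusted p of 0.85, so the change in KD mice is not shown to differ from that in saline mice. The call in KD mice was lost without Chow/FGFR4 KD 4 (-0.55), HFD/FGFR4 KD 3 (-0.59) or HFD/FGFR4 KD 4 (-0.59).

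*Atf4* (ENSMUSG00000042406, chr15:80255184-80257541, plus strand), the transcription factor of the PERK arm, was at 50.2, 57.7, 62.5 and 47.6 CPM in Chow and at 44.1, 47.4, 41.5 and 35.7 CPM in HFD. The groups met without overlap, 47.6 against 47.4 CPM. *Atf4* fell by 0.36 (SE 0.14), adjusted p = 0.109, and was not called without Chow 3 (-0.29) or HFD 4 (-0.29), nor with library totals (-0.08, adjusted p = 0.692). In KD mice its change was -0.11 (-0.41 to 0.19). *Ddit3* (ENSMUSG00000025408), which encodes CHOP, had 7 to 71 counts per library. It was at 5.95, 2.87, 7.505 and 4.02 CPM in Chow and at 4.75, 11.6, 4.91 and 3.03 CPM in HFD. With KD it was at 4.56, 1.60, 8.78 and 6.62 CPM on chow and at 6.50, 4.87, 9.46 and 5.96 CPM on HFD. All groups overlap, and its changes with HFD, 0.14 (-0.80 to 1.07) and 0.62 (-0.37 to 1.60), were not called.

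The outputs of ATF4 and CHOP went in opposite directions with HFD. *Trib3* (ENSMUSG00000032715, chr2:152337422-152344032, minus strand) encodes a pseudokinase that is induced through ATF4 and CHOP and binds AKT. It was at 2.05, 5.22, 2.23 and 2.60 CPM in Chow and at 6.63, 8.50, 8.89 and 3.84 CPM in HFD, where HFD 4 lay below Chow 2. In Chow/FGFR4 KD it was at 1.59, 2.74, 1.51 and 1.65 CPM and in HFD/FGFR4 KD at 4.12, 3.76, 7.31 and 3.63 CPM, with no overlap. *Trib3* rose by 1.28 (SE 0.34) in saline mice, 2.43-fold, adjusted p = 0.0262. It rose by 1.30 (SE 0.43) in KD mice, 2.45-fold, adjusted p = 0.104, and that call was lost without HFD/FGFR4 KD 3 (1.01, adjusted p = 0.251). These levels rest on 5 to 58 counts per library.

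*Asns*, asparagine synthetase, a classical target of ATF4, had few counts in HFD livers. It was at 3.08, 4.96, 1.22 and 1.42 CPM in Chow and at 0.432, 0.327, 0.307 and 0.404 CPM in HFD. The groups did not overlap. The HFD libraries held 2 or 3 counts each, 9 in all against 46 in Chow. Relative to the library sizes this is a ratio of 0.142 (95% exact interval 0.0613 to 0.295), or 7.02 times more in Chow (3.39 to 16.3). With KD the sums were 59 counts on chow and 17 on HFD, a ratio of 0.248 (0.135 to 0.431), with 9 and 6 of the 17 in HFD/FGFR4 KD 1 and 2. The intervals cover counting error only. No test of *Asns* is given, since a looser filter would let it in only through the chow libraries, where it is high.

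*Ppp1r15a* (GADD34, chr7:45522916-45526268, minus strand), which recruits the phosphatase that ends the translational block, was at 7.38, 12.5, 10.1 and 10.7 CPM in Chow and at 6.34, 8.17, 5.67 and 5.25 CPM in HFD. These groups overlap through Chow 1 and HFD 2. It fell by 0.64 (SE 0.26), adjusted p = 0.125, and was not called without Chow 2 (-0.55), HFD 3 (-0.59) or HFD 4 (-0.58), nor with library totals (-0.36). In KD mice its change was -0.37 (-0.98 to 0.24). *Chac1*, which breaks down glutathione, ranged from 2.37 to 5.74 CPM in Chow and from 2.91 to 7.52 CPM in HFD, a change of 0.30 (-0.42 to 1.03). Across the 6 tested genes of the PERK-ATF4 arm the median change in saline mice was 0.22, with *Trib3* called higher and *Atf4* and *Ppp1r15a* called lower. It was 0.53 with library totals and -0.06 without HFD 2.

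**Figure D3:**
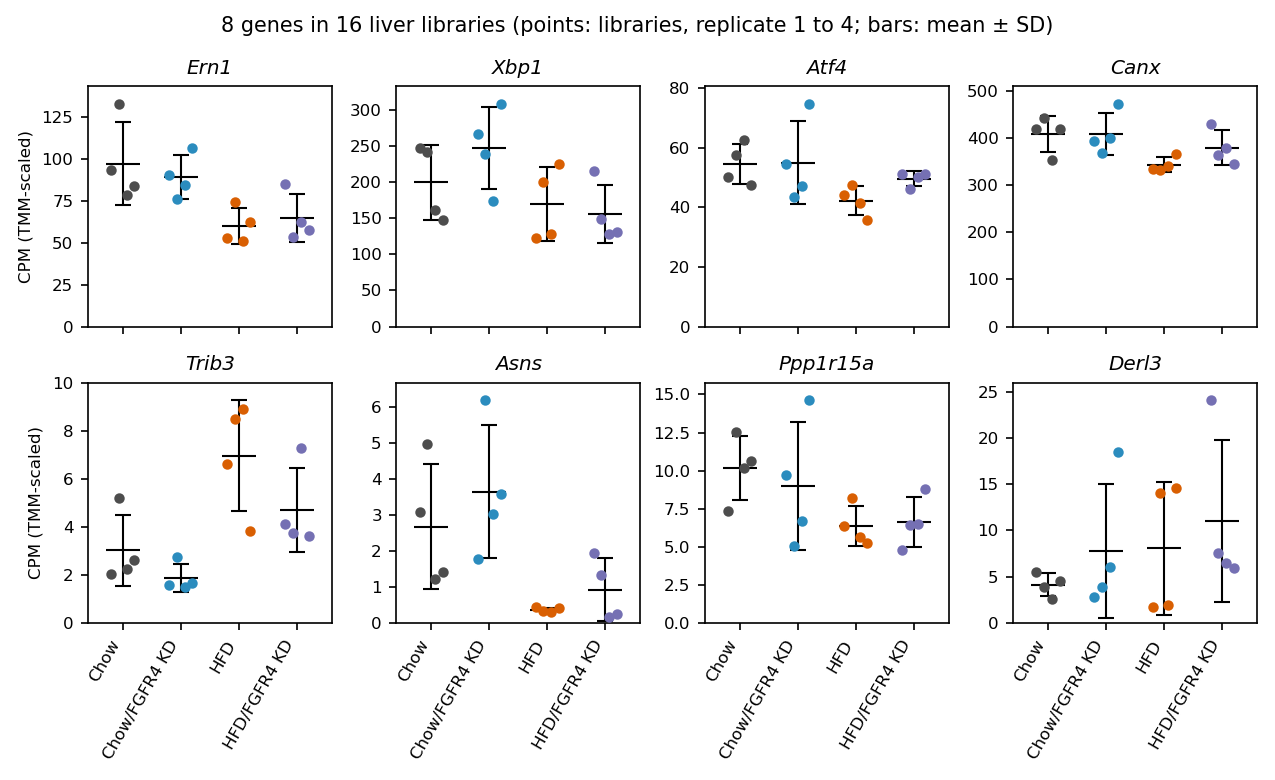
CPM of 8 genes in the 4 groups, with a point for each library (replicates 1 to 4 from left to right) and the mean ± SD as a bar. The group means of *Ern1* and *Asns* are lower and those of *Trib3* higher in the HFD groups, and *Derl3* splits the HFD libraries into 1.73 and 1.99 CPM against 14.1 and 14.5 CPM.

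The folding chaperones leaned lower with HFD but a single one passed the test. *Canx* (chr11:50293961-50325673, minus strand), calnexin, the membrane lectin that holds glycoproteins during folding, was at 419, 442, 355 and 419 CPM in Chow and at 334, 333, 341 and 367 CPM in HFD. The groups overlap through Chow 3 and HFD 4. It fell by 0.25 (SE 0.09), adjusted p = 0.111, was not called without Chow 2 (-0.21) and went to 0.03 with library totals. All 9 folding chaperones had a log2 change under 0 in saline mice, from -0.49 for *Creld2* (-1.42 to 0.44) to -0.15 for *Hsp90b1*, and all 9 in KD mice, with a median of -0.27 and of -0.24. With library totals those medians were 0.01 and -0.09. In KD mice the values also moved with single libraries, in both directions. Without Chow/FGFR4 KD 4 the median over the 12 chaperones and disulfide isomerases went from -0.21 to -0.02. In that setting 16 of the 31 genes were above 0 in place of 8. Without HFD/FGFR4 KD 1 the same median was -0.36, and 4 of the 31 genes were above 0. *Hyou1* (ORP150), a nucleotide exchange factor of BiP, gave -0.45 (-1.05 to 0.15) and -0.48 (-1.08 to 0.12). It was called in saline mice (adjusted p = 0.154) when Chow/FGFR4 KD 4 and HFD/FGFR4 KD 1 were both left out of the fit, as was *Dnajb11*, a J-domain partner of BiP (-0.35, adjusted p = 0.0803). Leaving out both was chosen after seeing the data, and gave 7 calls for HFD in saline mice and 3 in KD mice, where 27.5% and 18.8% of all genes were called.

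The disulfide isomerases *Pdia3*, *Pdia4* and *Pdia6* gave -0.23, 0.03 and -0.13 with HFD in saline mice and -0.17, 0.07 and -0.24 in KD mice, and 0 of the 3 were called. *Dnajb9* and *Dnajc3*, the J-domain co-chaperones of BiP, gave -0.20 and -0.16 in saline mice. *Sec61b*, the beta subunit of the translocation channel, gave -0.14 and -0.22. For *Sec61b*, *Hsp90b1* and *Dnajb9*, 23.5%, 12.3% and 10.8% of the 31-base words of their transcripts occur in transcripts of other genes, so part of their counts could be split with them.

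Among the degradation genes, which recognise misfolded proteins and pass them to the cytosol, none passed the test with HFD. Of *Herpud1*, *Sel1l*, *Syvn1*, *Edem1*, *Derl1*, *Derl2* and *Derl3*, 0 of 7 were called in either diet comparison with TMM factors, and the median change was -0.10 in saline mice and -0.08 in KD mice. *Derl3*, a derlin of the retrotranslocation step, had the widest spread of the 31 genes, with an SD of 1.07 on the log2 scale within groups. It was at 5.54, 3.91, 2.64 and 4.50 CPM in Chow and at 1.73, 14.1, 1.99 and 14.5 CPM in HFD. With KD it was at 2.78, 3.89, 6.05 and 18.5 CPM on chow and at 24.1, 7.52, 6.48 and 5.96 CPM on HFD. The HFD libraries fell on both sides of all Chow libraries, in the same pairs as the chaperones, and the change, 0.23 (-1.45 to 1.91), was not called. The derlins *Derl1* and *Derl2*, at 84.8 to 112 CPM and 80.4 to 98.7 CPM over all libraries, had SDs of 0.10 and 0.07.

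The genes were also summed up by arm in each library. The ATF6 arm, which shares 10 of its 13 genes with the chaperone list, gave library means from -0.53 in HFD 3 to 0.77 in Chow/FGFR4 KD 4. The 9 genes of the IRE1-XBP1 arm gave -0.36 in HFD 1 and HFD 3 and 0.63 in Chow/FGFR4 KD 4. The 6 tested genes of the PERK-ATF4 arm had their highest mean, 0.56, in HFD 2 and their lowest, -0.33, in Chow/FGFR4 KD 2, and stood at 0.13 and 0.09 in HFD 1 and HFD 3, where the chaperones were lowest. These means are descriptions of libraries with no test.

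**Figure D4:**
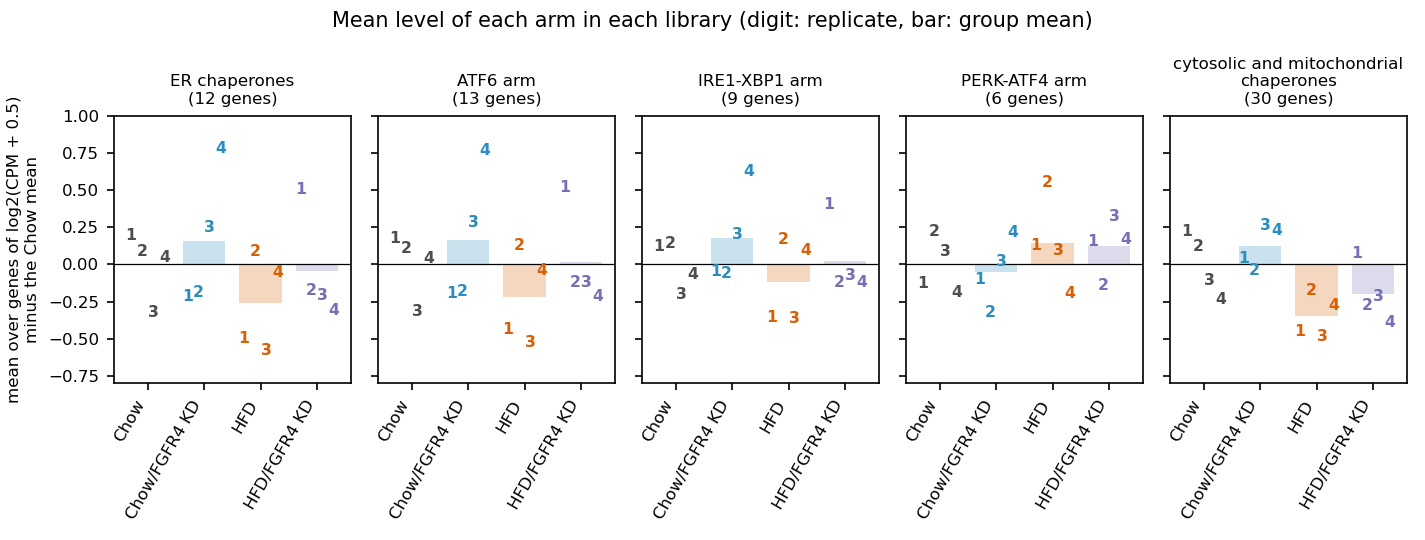
Mean over the genes of each arm of log2(CPM + 0.5) relative to the mean of Chow, for each library (digits give the replicate) and each group (bars give the group mean). Chow/FGFR4 KD 4 and HFD/FGFR4 KD 1 stand above and HFD 1 and HFD 3 below their groups in the chaperone, ATF6 and IRE1-XBP1 panels. In the PERK-ATF4 panel HFD 2 (0.56) is the highest library, and HFD 1 and HFD 3 lie above the mean of Chow.

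The difference between the KD effects on HFD and on chow was called for 0 of the 31 genes, against 0.0353% of all genes, and edgeR and DESeq2 called 0. An unadjusted p under 0.05 was found for 1 of the 31, against 6.76% of all genes. This was *Derl1*, with a difference of -0.26 (-0.51 to -0.02) and an adjusted p of 0.714 by limma-voom. Of the 31 differences 22 were above 0, against 49.6% of all genes. With library totals 12 were above 0, with a median of -0.06, where the median of all genes was -0.13. With TMM factors the count was 11 without HFD/FGFR4 KD 1 or Chow/FGFR4 KD 1, 12 without Chow/FGFR4 KD 2 and 13 without HFD 3. The comparisons share groups: HFD in saline mice and KD on HFD both use the HFD libraries, and a high or low HFD library enters them with opposite sign. The changes of *Hspa5* were -0.26 and 0.28, of *Creld2* -0.49 and 0.52, and of *Atf4* -0.36 and 0.24.

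For genes of the same pathways outside the set, the calls with HFD under TMM factors were mainly downward, though most genes were not called. Over all genes, 12.7% were called lower in saline mice and 10.1% in KD mice. Of 31 tested ER folding and redox enzymes, 9 were called lower and 2 higher in saline mice and 9 lower and 0 higher in KD mice. *Selenos*, a selenoprotein of the degradation complex, gave -0.71 and -0.43, *Pdia5* -0.86 in saline mice, and *Ganab*, glucosidase II, -0.36 and -0.29. Of 33 translocation, signal peptidase and glycosylation genes, 9 and 12 were called lower and 0 higher, with *Sec61g* at -0.41 and -0.44 and *Rpn1*, an oligosaccharyltransferase subunit, at -0.43 and -0.41. Of 23 other degradation genes, 3 and 5 were lower and 0 higher, *Faf2* with -0.20 and -0.31. With library totals the same lists gave 6 higher and 2 lower, 7 and 0, and 4 and 0 in saline mice. The direction of their calls thus depends on the scaling as well. In KD mice these lists gave 2 and 2, 2 and 4, and 3 and 0. Their median changes in saline mice with library totals were 0.11, 0.11 and 0.12, under the 0.29 of all genes.

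Other targets of ATF4 were called in both directions. Of 28 tested, 4 rose and 7 fell with HFD in saline mice, and 7 rose and 4 fell in KD mice. Over all genes, 13.3% were called higher and 12.7% lower in saline mice, and 10.1% each way in KD mice. With library totals (38% and 20.1% of all genes called) the calls were 9 higher and 2 lower, and 7 higher and 1 lower. The balance in saline mice thus depends on the scaling. *Vldlr*, a lipoprotein receptor, rose by 2.12, *Gpt2* by 0.53 and *Atf5* by 0.52, and *Tars*, threonyl-tRNA synthetase, and *Cth*, which makes cysteine, fell by 0.35 and 0.75. In KD mice *Atf5* rose by 0.70 and *Fgf21*, a stress hormone of the liver, by 2.59, and *Slc38a2*, an amino acid transporter, fell by 0.97. After KD on HFD 2 of the 28 rose, *Cebpb* by 1.32 and *Cth* by 0.72, where 3.14% of all genes were called. Of 30 cytosolic and mitochondrial chaperones, 15 and 13 fell with HFD and 0 rose, led by subunits of the chaperonin such as *Cct5* (-0.42 and -0.32), and the count in saline mice was 3 lower and 2 higher with library totals. Of 16 genes of translation control and stress kinases 5 rose and 1 fell in saline mice, and of 7 ER-anchored factors *Nfe2l1* rose by 0.22 and *Creb3l3* fell by 0.23.

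Other cell types and the clock differed with diet beside these changes. Over all genes, 13.3% were called higher and 12.7% lower with HFD in saline mice. In KD mice it was 10.1% each way, and after KD on HFD 3.14% of all genes were called. In saline mice 12 of 13 Kupffer cell and macrophage markers were higher with HFD, with a summed level of 185 to 313 CPM against 109 to 134 CPM in Chow, and 5 of 10 stellate markers were higher. In KD mice 5 of 13 and 1 of 10 were higher. Of 3 tested adipocyte markers, which include *Cidec* and *Fabp4*, 3 were higher with HFD in saline mice (the list summed to 45.8 to 116 CPM against 4.97 to 29.2 CPM), 2 were higher in KD mice, and 2 were lower after KD on HFD. Of the 8 hepatocyte markers, 4 were lower with HFD in saline mice, with log2 changes of -1.43 for *Tat*, -0.56 for *Serpina1a*, -0.44 for *Hnf4a* and -0.25 for *Apoa1*. The sum of that list, given above, overlapped between all groups. It was mostly *Alb* (55807 of 73930 CPM in HFD 1) and therefore says little about the other markers. In bulk liver, fewer cells of a type and less RNA per cell cannot be told apart. Of a clock list that includes *Dbp*, 6 of 8 tested genes were higher with HFD in saline mice (summed 318 to 483 CPM against 188 to 287 CPM). Of another clock list, which includes *Arntl*, 5 of 6 were lower. After KD on HFD 3 of 6 genes of the *Arntl* list were higher, with *Arntl* at 1.55. Of the *Dbp* list 2 of 8 were lower, with *Dbp* at -1.09. The part of the cell makeup and of the clock in the changes of *Ern1*, *Xbp1*, *Atf4*, *Trib3* and *Asns* was not tested.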

How the data were processed

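RNA of 16 mouse livers was measured by RNA-seq, in 4 groups of 4 given by the labels. The authors trimmed reads with fastp, pseudoaligned them with kallisto to the mouse transcriptome (GRCm38 in the submitters' processing notes) and summed transcripts to genes with tximport. Tool versions and the transcriptome release are not given in the sources used here. The deposited values are estimated counts that need not be whole, with no scaling.

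A gene was kept when at most 4 of the 16 libraries lay below 1 CPM, the rule the study states. This left 11324, fewer genes than the paper reports for liver. The genes tested and their calls are therefore not those of the paper. TMM factors came from edgeR 4.0.16, and the counts were fitted with limma-voom (limma 3.58.1, R 4.3.3), the tools the study names. The model, with a mean for each group over all 16 libraries, was chosen here. Each adjusted p is Benjamini-Hochberg adjusted over all genes tested. Calls needed an unadjusted p under 0.05 and an adjusted p under 0.25. EdgeR's quasi-likelihood test and DESeq2 1.42.0 were run on rounded counts. CPM use the TMM factors, and library means use log2(CPM + 0.5). Counts of *Asns* were compared with an exact conditional interval. Totals of 3445949 to 5976449 counts per library set the precision. The fit was tested on simulated counts with known changes in 200 genes of HFD/FGFR4 KD. Each of these genes was changed by 1 on the log2 scale, up or down, and genes of low count were not among them. For KD on HFD the fit called 167 of the 200, and 53 unchanged genes. Most changes of the genes of the set were smaller, so these counts do not show how often changes of their size are found. Genes were simulated independently of each other, so genes that move together between libraries are not covered.

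Each of the 32 genes is accounted for. Values per library are given for genes called in a comparison and for transcription factors and sensors, and for *Hspa5*, *Herpud1*, *Derl3* and *Asns*, chosen after their values were seen. At most 5 genes of another list and comparison are named, those called with the smallest p. The members and lists were chosen with earlier results of these data known. Gene positions and transcripts are of GENCODE vM21, promoter windows of RefSeq. Alternatives were other scalings, filters, tests, weights, samples and thresholds, a replicate block and each library left out.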

Additional observations from a re-analysis of the deposited data

Results flagged for a closer look

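In 16 of 124 groups of 4 values, 31 genes in 4 groups, the highest or lowest library lay farther from the rest than the 95% critical value of Dixon's test, which sets the gap against the range of the group. Chance flags about 1 in 20 groups of normal values, which is 6.2 of 124. The gaps were taken on CPM and not on log2 values, where a gap at the high end is smaller. The 6.2 is therefore a rough guide. Since the genes move together, these are not separate events.

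HFD/FGFR4 KD 1 gave 10 of the 16, each as the highest of its group. In that library *Hspa5* was at 2090 CPM against 1118 to 1201 CPM in the other 3, *Hyou1* at 499 against 237 to 279, *Dnajb11* at 156 against 89.1 to 100.3, *Sdf2l1* at 91.7 against 34.5 to 41.0 and *Manf*, a secreted stress factor, at 194 against 119 to 127. *Creld2* was at 146 against 60.3 to 65.5, *Herpud1* at 806 against 546 to 567, *Syvn1* at 281 against 155 to 171, *Edem1*, a mannosidase-like lectin of degradation, at 268 against 194 to 204 and *Derl3* at 24.1 against 5.96 to 7.52 CPM.

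The other 6 came from 6 libraries, with no library flagged again. *Herpud1* in HFD 2 was at 739 CPM against 362 to 424, and *Pdia6* in Chow/FGFR4 KD 4 at 425 against 262 to 279. *Dnajb11* in Chow 3 was at 96.3 CPM against 117 to 121, and *Atf4* in HFD/FGFR4 KD 2 at 46.0 against 50.3 to 51.2. *Trib3* was at 2.74 CPM in Chow/FGFR4 KD 2 against 1.51 to 1.65 and at 7.31 CPM in HFD/FGFR4 KD 3 against 3.63 to 4.12. The cause of these gaps was not tested.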

How the results depend on the processing

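For KD on HFD the count of genes called was 0 under every setting that kept all libraries and 0 to 1 when a library was left out (1 without HFD 2). For KD on chow and for the difference of the KD effects it was 0 under every setting tried. For HFD in saline mice the 5 calls of 31 became 9 of 32 when only the groups compared were filtered and fitted (24.2% of all genes called). *Asns* is among the 9, but that filter let it in only through the Chow libraries, where it is high. Its call is therefore not taken as a result. The 5 calls became 2 at an adjusted p under 0.05, and 3 to 7 when a library was left out (3 without Chow 2, 7 without HFD 2, with 21.6% and 26.6% of all genes called). For HFD in KD mice the 3 calls became 0 at an adjusted p under 0.05, and 0 to 8 when a library was left out: 0 without HFD/FGFR4 KD 3, 1 without Chow/FGFR4 KD 4 and without HFD/FGFR4 KD 4, and 8 without HFD/FGFR4 KD 1. The share of all genes called was 12.8%, 13.2%, 10.5% and 22.3% in these settings, in the same order, against 20.2% with all libraries. The cause was not tested. The log2 change of *Canx* with HFD in saline mice turned from -0.25 to 0.035 with library totals, under which the median of all genes was 0.29. A replicate block gave 5 calls for HFD in saline mice, 3 in KD mice and 0 in the other comparisons. Libraries with the same number did not deviate together (correlations from -0.52 to 0.53), so the numbers were not taken as pairs. *Trib3*, *Ddit3*, *Chac1*, *Asns* and *Derl3* rest on few counts per library at this depth.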
